A study of Homo sapiens with 9 samples.

Results

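IL24, the interleukin gene with the largest rise under SID peptide in replicates 1 and 2 of this array series, was examined together with 3 cytokine genes that lie beside it and 3 genes of the receptor chains. The 7 genes, out of 18417 measured, were IL24, IL10, IL19 and IL20 (cytokines) and IL20RA, IL20RB and IL22RA1 (receptor chains). Each was represented by a probe paired with a single gene symbol, and each had 1 such probe. IL24 was picked on its own values, so its own differences are described below with no test, whereas the other genes were taken by position or by receptor membership.

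IL24, IL19 and IL20 are secreted cytokines of the IL-10 family. All of them bind a receptor built from IL20RA and IL20RB, and IL20 and IL24 also use IL22RA1 paired with IL20RB. IL10, the founder of the family, acts through a different pair, IL10RA and IL10RB. Receptor binding activates JAK kinases and STAT transcription factors, STAT3 above all, and the genes are best known from keratinocytes and blood leukocytes. IL24 was first isolated from melanoma cells that had been driven to differentiate, and it has been studied for growth arrest and stress signalling in tumour cells.

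The cells, MDA-MB-231, a breast cancer line of human origin that lacks hormone receptors and HER2 amplification and has mesenchymal features, were kept in medium with serum in all groups. Untreated cells (UT) received no peptide. SID cells were given 2.5 μM of a decoy peptide, a cell-penetrating TAT sequence joined to the part of MAD1 that binds the PAH2 domain of the corepressor SIN3A, and SCR cells were given TAT joined to a scrambled control. The labels give an exposure of 24 hours for every group, total RNA was hybridized to Affymetrix human gene arrays, and each group holds 3 arrays, 9 in all. The labels give the dose for SID only, and the study's methods state 2.5 μM for the scrambled peptide as well. The study's supplement heads SCR replicate 3 with a longer time than the labels, and its methods speak of a pair of biological replicates, so the time and origin of the replicate 3 arrays are not settled here. The p-values below measure only the spread between arrays of this cell line, and the replicate cultures may be technical. In fits on all 9 arrays, that spread includes the gap between replicate 3 and the other arrays of SCR and of SID. There the p-values do not measure the spread between cultures alone.

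The values are log2 signals per transcript cluster, spanning 3.75 to 14.94 over the table. Array medians lay between 7.68 and 7.77. Replicates 1 and 2 of SCR and SID formed one set of arrays, and replicate 3 of both groups lay with UT. Across the 19460 probes tested, the Pearson correlation of SCR replicate 1 was 0.995 with SCR replicate 2 but 0.927 with SCR replicate 3, which correlated at 0.996 with SID replicate 3. Of the cell line markers, CD44 moved with the sets, at 13.17 to 13.25 on the 4 arrays of replicates 1 and 2 and 10.68 to 10.84 on the other 5. Others did not. EGFR read 11.68 and 12.15 on SCR replicates 1 and 2 and 11.06 to 11.27 on all other arrays. KRT18 read 12.32 and 12.39 on SID replicates 1 and 2 and 13.23 to 13.67 on all other arrays. VIM, KRT8 and KRT18 read 12.32 or more on every array, and the hormone receptor genes PGR and ESR1 read at most 5.75 and 7.23, although the table holds no detection call. GATA3, a luminal factor listed among markers that should be low, reached 10.05 in SCR replicate 2. FOXA1, of the same list, reached 10.03 in UT replicate 3. ERBB2, the HER2 gene and also of that list, read 9.15 to 9.64 over the 9 arrays, above every array median. PTPRC, the pan-leukocyte marker, stayed between 4.84 and 5.07. The part of the array sets in the results below was not tested, and values of replicates 1 and 2 are therefore given beside those of replicate 3.

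The stretches upstream of the IL24 and IL20 start sites are shown because these were the cytokine genes with the largest mean differences between SID and SCR. Both come from RefSeq promoters on GRCh38.p14, plus strand, 250 bases ending just before the start, with matches to the searched motifs in capitals.
IL24, chr1:206897193-206897442: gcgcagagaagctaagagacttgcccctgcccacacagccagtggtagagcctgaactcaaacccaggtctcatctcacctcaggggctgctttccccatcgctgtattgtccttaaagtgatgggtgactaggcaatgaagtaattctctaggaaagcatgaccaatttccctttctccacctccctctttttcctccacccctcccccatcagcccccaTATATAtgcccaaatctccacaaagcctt
IL20, chr1:206863315-206863564: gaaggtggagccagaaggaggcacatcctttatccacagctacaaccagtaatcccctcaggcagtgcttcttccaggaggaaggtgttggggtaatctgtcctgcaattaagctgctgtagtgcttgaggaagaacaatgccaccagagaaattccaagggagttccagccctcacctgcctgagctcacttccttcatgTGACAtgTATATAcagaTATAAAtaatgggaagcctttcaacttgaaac
The IL24 stretch has a GC content of 51.6% and holds a single match, TATATA, whose first base lies 29 bases before the start. The IL20 stretch has a GC content of 47.6% and holds TATAAA at 32 bases, TATATA at 42 bases and TGTCA, read on the minus strand, at 49 bases. Searches covered both strands of 35116 promoters. TATATA was in 3.73% of them, TATAAA in 10.7%, the TGIF core TGTCA in 34%, the AP-1 site TGANTCA in 6.57%, the MAX E-box CACGTG in 6.34% and the C/EBP site TTGCNNAA in 9.05%. None of the last 3 was found in either window. RefSeq lists another IL20 start, which is not shown.

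IL24 RNA was high on SID replicates 1 and 2 and on no other array. Its log2 signal was 6.18, 6.36 and 6.18 on the UT arrays. On the SCR arrays it was 6.67, 6.59 and 5.92. On the SID arrays it was 11.29, 12.05 and 6.14. SID replicate 3 lay inside the range of the SCR arrays, and the SID and SCR groups therefore overlapped. The SID group mean was 9.83 ± 3.22 (SD, n = 3), against 6.39 ± 0.41 for SCR and 6.24 ± 0.10 for UT.

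Taken by replicate number, SID exceeded SCR by 4.63 log2 in replicate 1, a 24.8-fold ratio of signals. In replicate 2 the difference was 5.46, or 43.9-fold. In replicate 3 it was 0.22, or 1.16-fold. Among 19460 probes, IL24 ranked first in replicates 1 and 2 and 2243rd in replicate 3. The gene just below it in mean difference over replicates 1 and 2 was CEMIP, which degrades hyaluronan, at 3.28 beside 5.04 for IL24. SLC16A4, a monocarboxylate transporter family gene, stood at 2.99 and ABCA1, a cholesterol exporter, at 2.85. Over all 3 replicates the mean difference of IL24 was 3.43 against SCR and 3.59 against UT. Without SID replicate 3 it was 5.28 against SCR and 5.43 against UT, and these differences carry no test because the gene was chosen for them.

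On the SCR arrays IL24 was near its UT level, with a mean difference of 0.15. SCR replicates 1 and 2, at 6.67 and 6.59, were above all UT arrays, and SCR replicate 3, at 5.92, was below all of them. Over SCR replicates 1 and 2 alone the mean difference from UT was 0.39. No test is given for these differences, because the SCR values were among those on which IL24 was picked.

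**Figure D1:**
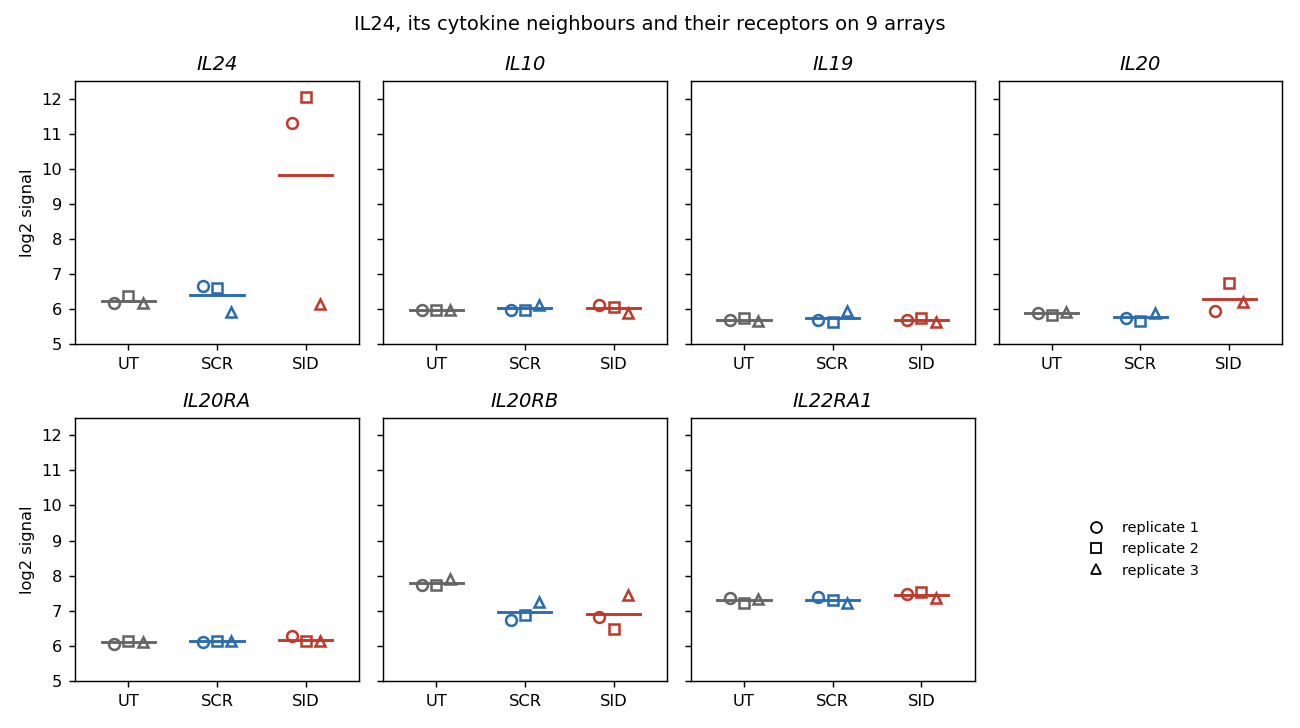
Log2 signal (y axis) of each of the 7 genes on the 9 arrays, by group (x axis), with a symbol for each replicate and a bar at the mean of 3 arrays. IL24 reads 11.29 and 12.05 on SID replicates 1 and 2 and 5.92 to 6.67 on all other arrays, IL20RB is lower on every peptide array than on any UT array, and the remaining genes span at most 1.09 log2.

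None of the 7 genes was called between SID and SCR, SID and UT or SCR and UT by limma on the 9 arrays, where calling a probe took a log2 difference of more than 1 in either direction, in addition to an adjusted p under 0.05. The share of all tested probes called was 0% in each comparison. At an unadjusted p under 0.05, 1474 probes differed between SID and SCR, 2432 between SID and UT and 2811 between SCR and UT. The methods' t-test called 0 probes in each comparison and gave 378, 1715 and 1794 at that unadjusted level. With replicates 1 and 2 of SCR and SID set against the 3 UT arrays, 5.26% of probes were called between SID and SCR, 13.3% between SID and UT and 11.4% between SCR and UT. In that fit 0 of the 6 members other than IL24 were called between SID and SCR, and IL24 is not counted because it was picked on these arrays.

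IL20 was the other cytokine with higher signals under SID, by far less than IL24. This gene, next to IL24 and coding for a ligand of the same receptors, read 5.90, 5.83 and 5.91 on the UT arrays and 5.76, 5.65 and 5.90 on the SCR arrays. On the SID arrays it read 5.94, 6.74 and 6.20. All 3 SID arrays lay above all 6 others, a pattern that 4.01% of probes showed against SCR and 10.7% against UT. The closest were 5.94 on SID replicate 1 and 5.91 on UT replicate 3. Every IL20 signal lay below every array median. The difference from SCR was 0.18, 1.09 and 0.30 by replicate, so IL20, unlike IL24, had more of it in replicate 3 than in replicate 1.

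On average IL20 was 0.52 higher in SID than in SCR (SE 0.19), with a limma adjusted p of 0.657 and an unadjusted p of 0.0256. An exact two-sided permutation test gave p = 0.1, the smallest that 3 arrays against 3 allow. Without SID replicate 2 the difference was 0.30, and over replicates 1 and 2 it was 0.64 (SE 0.22, limma adjusted p = 0.0779). Against UT it was 0.42 (SE 0.19, limma adjusted p = 0.388). SCR and UT differed by -0.11 (limma adjusted p = 0.813). The difference of IL20 was thus not past the threshold in any of these fits.

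IL10 and IL19, the remaining cytokines of the cluster, differed by far less between SID and SCR. IL10, a cytokine that restrains inflammation, read 5.98 on each UT array, 5.97, 5.98 and 6.13 on the SCR arrays and 6.13, 6.07 and 5.90 on the SID arrays. IL19, a ligand of the IL20RA and IL20RB receptor, read 5.69, 5.74 and 5.66 on UT, 5.69, 5.64 and 5.95 on SCR and 5.69, 5.76 and 5.64 on SID. The groups overlapped for both genes. Both read below every array median (7.68 to 7.77). Without detection calls, such low and flat signals cannot show whether expression was unchanged. The mean SID difference from SCR was 0.01 for IL10 (SE 0.08, limma adjusted p = 0.999) and -0.06 for IL19 (SE 0.09, limma adjusted p = 0.924). By replicate it ran from -0.23 to 0.17 for IL10 and from -0.31 to 0.12 for IL19, with the lowest value in replicate 3 for both.

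Of the receptor genes, IL20RB was lower on all peptide arrays than on any UT array, whichever peptide was given. IL20RB codes for the chain shared by both receptors of IL24 and read 7.72, 7.74 and 7.91 on UT. It read 6.74, 6.88 and 7.26 on SCR and 6.83, 6.49 and 7.44 on SID. Within both peptide groups replicate 3 was the highest and nearest to UT. SCR was lower than UT by 0.83 on the log2 scale (a difference of -0.83, SE 0.24, limma adjusted p = 0.332, unadjusted p = 0.00953). For SID the difference from UT was -0.87 (SE 0.24, limma adjusted p = 0.388, unadjusted p = 0.00773). Every SCR array below every UT array was found for 12% of probes, and every SID array below every UT array for 8.05%, with the exact permutation p at its smallest, 0.1, in each case.

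With replicates 1 and 2 alone set against UT, IL20RB passed the threshold for SID. There the difference was -1.13 (SE 0.12, limma adjusted p = 0.000187), when 6.4% of all probes were called lower. For SCR in the same fit it was -0.98 (SE 0.12, limma adjusted p = 0.000447), short of the fold limit. Between SID and SCR the difference of IL20RB was 0.09, -0.39 and 0.19 by replicate and -0.04 on average (SE 0.24, limma adjusted p = 0.999). These comparisons share their UT arrays, and SCR and SID replicates 1 and 2 belong to the array set that stood apart.

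IL20RA and IL22RA1 stayed within narrow ranges, and both read below every array median. IL20RA, the other chain of the receptor common to IL19, IL20 and IL24, read 6.05, 6.13 and 6.12 on UT and 6.10, 6.13 and 6.14 on SCR. On SID it read 6.28, 6.13 and 6.13, and its difference from SCR was 0.06 (SE 0.07, limma adjusted p = 0.890). IL22RA1, which also forms the IL-22 receptor, read 7.36, 7.23 and 7.34 on UT, 7.39, 7.30 and 7.21 on SCR and 7.47, 7.54 and 7.36 on SID. Its difference from SCR had one sign in all replicates, at 0.08, 0.24 and 0.15. The mean was 0.16 (SE 0.08, limma adjusted p = 0.686), and SID replicate 3 overlapped SCR and UT. Over the 6 genes other than IL24, differences between SID and SCR ran from 0.00 to 0.18 (replicate 1), from -0.39 to 1.09 (replicate 2) and from -0.31 to 0.30 (replicate 3). In replicate 2, 1 of them exceeded 1, as did 2.49% of all tested probes. In replicate 1 none did, with 2.09% of all probes above 1, and in replicate 3 no tested probe exceeded 1.

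In the wider IL-10 family no gene passed the threshold. All 9 genes of a list of further family cytokines and receptors were measured. Relative to SCR, 7 had a higher and 2 a lower mean under SID, with a median difference of 0.05. Over all tested probes 10742 were higher and 8712 lower, with a median of 0.02. IL10RB, the shared chain of the receptors for IL10, IL22 and the lambda interferons, had the largest positive difference. It read 10.26, 10.16 and 9.74 on SCR and 10.81, 10.83 and 9.49 on SID, which is 0.55, 0.67 and -0.24 by replicate. IL10RA, the ligand-binding chain for IL10, stood at the other end with -0.07, 0.00 and -0.26. The ligand genes IL22 and IL26 differed by at most 0.16 in size in any replicate. None of the 9 was called with replicates 1 and 2 alone either, where 5.26% of all probes were. There IL10RB was 0.61 higher in SID than in SCR (SE 0.09, limma adjusted p = 0.00264), short of the fold limit.

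The genes around IL24 on chromosome 1 differed between SID and SCR in both directions. IL24 was picked as the largest rise of all probes, so it follows from that choice that no neighbour rose more in replicates 1 and 2. The 18 protein-coding genes with a start within 500 kb of its own run from IKBKE to CD55 in the plot of differences along the chromosome. For the 14 that are no members, SID minus SCR had a median of -0.01, 0.17 and -0.05 in replicates 1, 2 and 3. In each of replicates 1 and 2, 1 of these 14 lay beyond 1 in size, and in replicate 3 none did. That gene was IKBKE, a kinase of interferon and NF-κB signalling, with -1.03 in replicate 1, -1.88 in replicate 2 and 0.24 in replicate 3. Below -1 lay 2.44%, 5.12% and 0.293% of all tested probes in these replicates.

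IKBKE read 8.63, 8.85 and 9.06 on UT, 10.57, 10.75 and 8.80 on SCR and 9.54, 8.87 and 9.04 on SID. Its level was thus highest on SCR replicates 1 and 2. With replicates 1 and 2 alone it was called lower (-1.46 from SCR to SID, SE 0.22, limma adjusted p = 0.00337), as were 3.31% of all probes. CD55, which protects cells from complement, differed by 0.61, 0.92 and -0.08. It read 13.15 to 13.24 on UT, 12.27, 12.12 and 13.25 on SCR and 12.88, 13.05 and 13.18 on SID. MAPKAPK2, a kinase that controls the stability of cytokine RNAs, differed by 0.35, 0.29 and 0.10. FCMR, the gene directly after IL24, differed by 0.24, 0.26 and -0.06.

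Signalling genes downstream of the receptors showed one large difference. Of 22 JAK-STAT genes, 20 were measured. On the mean of 3 replicates 13 were higher in SID and 7 lower, with a median difference of 0.20, and none was called on all 9 arrays. PIM1, a STAT-induced survival kinase, read 11.10, 11.30 and 11.28 on UT, 10.23, 10.41 and 10.87 on SCR and 12.35, 12.89 and 10.81 on SID. Its difference was 2.12, 2.48 and -0.06 by replicate, so that only replicates 1 and 2 stood apart. In the fit of replicates 1 and 2 it rose by 2.30 (SE 0.18, limma adjusted p = 0.000274) and was the only called gene of the list, 1 of 20, beside 5.26% of all probes called in that fit.

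SOCS3, the feedback inhibitor that STAT3 induces, had the largest negative difference in that list. It read 9.05, 8.86 and 8.88 on UT, 8.73, 9.13 and 8.68 on SCR and 8.63, 8.24 and 8.60 on SID. The difference between SID and SCR was -0.09, -0.89 and -0.08, and the groups did not overlap, as for 1.65% of probes with every SID array below every SCR array. SOCS3 RNA was thus not higher on the arrays where IL24 was high. The values are RNA only and say nothing of protein or of phosphorylated STAT3.

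Genes tied to IL24 transcription and RNA stability mostly had higher means over 3 replicates in SID than in SCR, but not in replicate 3 alone. Of 17 such genes, 16 were measured (MAPK14 was not), with 14 higher and 2 lower on the mean of 3 replicates and a median of 0.21. Over all tested probes 10742 of 19460 were higher on that mean. In replicates 1, 2 and 3, 12, 10 and 8 of the 16 were higher. A higher signal than SCR was not always one above UT. JUNB, named after its values were seen, read 11.07 to 11.21 on UT, 9.75, 10.13 and 11.06 on SCR and 10.74, 10.90 and 10.97 on SID. By replicate the median was 0.39, 0.33 and 0.02, beside 0.00, 0.07 and 0.01 over all tested probes. None was called on all 9 arrays. In the fit of replicates 1 and 2, FOSL1 and ZFP36 were called higher, as were 1.95% of all probes. ZFP36, which binds AU-rich elements and destabilizes cytokine RNAs, had the largest mean difference.

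ZFP36 read 8.13, 8.40 and 8.33 on UT, 8.42, 9.0 and 8.22 on SCR and 9.96, 10.32 and 8.18 on SID. By replicate the difference was 1.54, 1.32 and -0.04, and in the fit of replicates 1 and 2 it was 1.43 (SE 0.21, limma adjusted p = 0.00259). FOSL1, an AP-1 subunit named after its values were seen, was high already on SCR replicates 1 and 2, with 9.06, 9.15 and 9.0 on UT, 11.03, 11.33 and 9.31 on SCR and 12.26, 12.59 and 9.29 on SID. Its difference was 1.22, 1.26 and -0.02 by replicate and 1.24 in the fit of replicates 1 and 2 (SE 0.14, limma adjusted p = 0.00117). At the other end, NFKB1, an NF-κB subunit, differed by -0.72, -0.89 and 0.09 and was not called. On SCR replicates 1 and 2, where FOSL1 read 11.03 and 11.33, IL24 read 6.67 and 6.59. Both genes were higher on SID replicates 1 and 2, and a link between them was not tested.

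**Figure D2:**
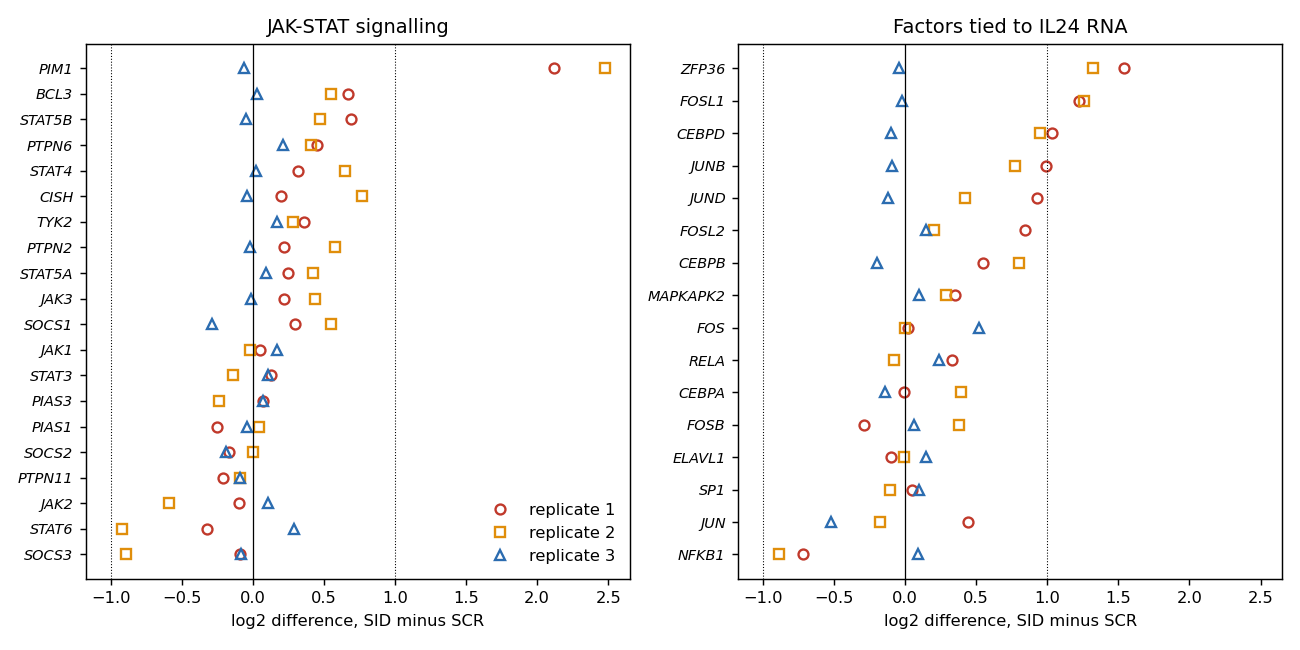
Log2 difference between SID and SCR (x axis) in each replicate for measured JAK-STAT genes (left) and for factors tied to IL24 RNA (right), 1 gene per row, sorted by the mean difference, with dotted lines at 1 and -1. In replicates 1 and 2 PIM1 lies at 2.12 and 2.48 and ZFP36 at 1.54 and 1.32, whereas no gene of either list exceeds 0.52 in size in replicate 3.

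Stress and growth arrest genes that have been linked to IL24 in tumour cells differed in both directions. Of 19 genes, 18 were measured, 11 were higher and 7 lower in SID on the mean, and the median difference was 0.17. None was called on all 9 arrays. GADD45A, which slows the cell cycle after damage or stress, read 8.54, 8.23 and 8.49 on UT, 9.42, 9.55 and 8.64 on SCR and 10.47, 10.90 and 8.77 on SID. It was called in the fit of replicates 1 and 2 (1.20, SE 0.16, limma adjusted p = 0.00205), with 1.05, 1.36 and 0.13 by replicate. It was the only gene of the 18 called there, beside 5.26% of all probes. EIF2AK2, the kinase PKR, had the largest negative difference, at -0.58, -0.27 and 0.17, and was not called. DDIT3, the stress factor CHOP, differed by 0.15, 1.09 and 0.47, and was named after its values were seen.

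Keratinocyte genes that respond to IL-20 cytokines in skin were split evenly in direction. Of 21, 19 were measured (DEFB4A and KRT6A were not), with 9 higher and 10 lower in SID and a median of -0.04. LCN2, an antimicrobial iron-binding protein, had the largest positive difference, with 0.96, 1.03 and 0.26 by replicate. It read 8.0, 8.11 and 8.03 on UT, 10.98, 11.08 and 7.93 on SCR and 11.95, 12.11 and 8.19 on SID, and was not called. In the fit of replicates 1 and 2 its difference from SCR was 1.00 (SE 0.10, limma adjusted p = 0.000584), not past the fold limit. Most of its distance from UT in replicates 1 and 2 was present in SCR as well. CXCL1, a neutrophil attractant, was called lower in the fit of replicates 1 and 2 (-1.48, SE 0.15, limma adjusted p = 0.000689), with -1.18, -1.77 and -0.26 by replicate. This was 1 of 19 genes, beside 5.26% of all probes called in that fit. It read 7.70 to 7.81 on UT, 10.99, 11.11 and 7.97 on SCR and 9.80, 9.34 and 7.71 on SID.

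No leukocyte marker was called between SID and SCR. Of 9 blood cell markers, 8 were measured, with 3 higher and 5 lower in SID, a median difference of -0.05 and no call in either fit. Of all tested probes, 0% were called on the 9 arrays and 5.26% with replicates 1 and 2 alone. Their mean log2 level was 6.28 to 6.38 over the UT arrays, 6.42 to 6.55 over SCR and 6.29 to 6.45 over SID. The lineage-defining CD3E and MS4A1 read at most 6.39 and 5.55. NKG7, of the same list, read 8.06 to 8.37 over the 9 arrays, above every array median (7.68 to 7.77). CD14 and LYZ, monocyte genes named after their values were seen, were highest on SCR replicate 2, at 8.60 and 6.25. Over UT they read 7.30 to 7.71 and 5.09 to 5.27, and on SID replicates 1 and 2 they read 7.95 and 7.81 and 5.79 and 5.68. In bulk RNA, more cells that express a gene and more RNA per cell cannot be told apart.

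A few genes followed IL24 closely over the 9 arrays. Among 5586 probes with a range of at least 1 log2, 44 had a Pearson r above 0.98 with IL24 and 31 had one below -0.98. The most alike were AOAH (r = 0.995), which inactivates bacterial lipopolysaccharide, PPIL6 (0.993), GSN (0.991), RNASE1 (0.991) and PLA2R1 (0.990). GSN codes for the actin-severing protein gelsolin, RNASE1 for a secreted ribonuclease and PLA2R1 for a phospholipase receptor. The most opposed were ABCG2, a drug efflux pump, NETO2 and WDR76, each at -0.995.

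These correlations are set by SID replicates 1 and 2, which are part of how IL24 was chosen, and the points share cultures and array set. Without those arrays, over the other 7, r was 0.58 for AOAH, 0.49 for PPIL6, 0.28 for GSN, 0.05 for RNASE1 and 0.40 for PLA2R1. For the opposed genes it was -0.86 for ABCG2, -0.80 for NETO2 and -0.84 for WDR76. RNASE1 read 7.13 to 7.41 on those 7 arrays and 9.58 and 9.69 on SID replicates 1 and 2. NETO2 read 10.99 to 11.81 on the 7 and 6.29 and 6.20 on SID replicates 1 and 2. Among the members, r with IL24 over 9 arrays was 0.83 for IL22RA1, 0.65 for IL20, 0.59 for IL20RA, 0.57 for IL10, 0.01 for IL19 and -0.68 for IL20RB.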

How the data were processed

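RNA of MDA-MB-231 cells, 3 arrays each of UT, SCR and SID, was measured on Affymetrix human gene arrays. The authors deposited 1 value per transcript cluster and array, which was taken as log2 signal from its range, since the scale is not stated. Their processing notes name Affymetrix Expression Console, RMA and Transcriptome Analysis Console, without versions. The study's own analysis works on single probes and cannot be repeated from these values.

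Of 33297 probes, 19460 had 1 gene symbol in the platform annotation, 1754 had several and 12083 none. Symbols were updated through Entrez IDs for 19429 of them. Where a gene had several probes, the brightest over 9 arrays was used. limma 3.58.1 (lmFit, eBayes) was run in R 4.3.3 on all tested probes, with 1 mean per group without covariates, and p-values were adjusted over all of them (Benjamini-Hochberg). This procedure was tested on simulated data. Tables were made with pandas 2.3.3 and figures with matplotlib 3.10.9.

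The genes and gene lists were chosen with earlier results of these data known. Named are all members, the largest positive and negative difference of each list, and the 5 genes most like and 3 most opposed to IL24. Any gene of the cytokine, receptor and chromosome lists could be named too. Marker genes of the cell line and of blood cells are named as checks. Some listed genes are not reported here. The number of arrays limits the precision.

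Whether replicate numbers pair SCR and SID was checked. Deviations from the group means of same-numbered arrays correlated at 0.774, 0.575 and 0.791. Numbers crossed between replicates 1 and 2 gave 0.748 and 0.604, so the check cannot show which of those arrays pair. It only separates replicate 3 from replicates 1 and 2, and differences by replicate follow the numbers of the labels. UT numbers did not pair (0.0297, 0.215 and 0.087 with SID). Alternatives were a replicate block, array weights, quantile normalization, centring, other probe and array sets, the Student's t-test and leaving out each array.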

Additional observations from a re-analysis of the deposited data

How the results depend on the processing

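On all 9 arrays 0 of the 7 genes were called in each comparison. The count rose in some of the fits that left out replicate 3 or gave it a low weight. With array weights 1 was called between SID and SCR (IL24), 2 between SID and UT (IL24 and IL20RB) and 1 between SCR and UT (IL20RB). Array weights set SCR and SID replicate 3 to 0.176 and 0.137, with 1 warning from the fit. With replicates 1 and 2 of SCR and SID, 1 was called between SID and SCR and 2 between SID and UT, the same genes. In that fit 5.26% and 13.3% of all tested probes were called in these comparisons. Leaving out 1 array gave 0 to 1 for SID and SCR and 0 to 2 for SID and UT, the higher count without SID replicate 3, and 0 throughout for SCR and UT. The share of all probes called with array weights or without 1 array is not given here, so those counts have nothing to be set beside. IL24 was chosen on SID and SCR, so its calls are no independent evidence. IL20RB between SID and UT was -1.08 with array weights, and -1.13 without SID replicate 3 (limma adjusted p = 0.0101). Between SCR and UT it was -1.08 with array weights.

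The replicate block called 0 genes in each comparison and changed no call. With it IL20 was 0.52 higher in SID than in SCR (SE 0.17, limma adjusted p = 0.205).

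Small differences changed sign. Between SID and SCR, IL19 became 0.01 with array weights and 0.06 with replicates 1 and 2, and IL20RB became 0.0022 with array weights. Leaving out 1 array gave -0.04 to 0.07 for IL10, -0.12 to 0.03 for IL19 and -0.30 to 0.18 for IL20RB. Between SID and UT, IL19 became -0.02 with quantile normalization and ran from -0.03 to 0.03 without 1 array. Between SCR and UT, quantile normalization gave -0.01 for IL10 and -0.04 for IL20RA. Array weights gave -0.01 for IL20RA and 0.03 for IL22RA1. Replicates 1 and 2 gave -0.0044 for IL10, -0.03 for IL19 and 0.03 for IL22RA1. Without 1 array the ranges were -0.0044 to 0.08 for IL10, -0.03 to 0.13 for IL19, -0.0037 to 0.04 for IL20RA and -0.05 to 0.03 for IL22RA1. None of these was past the threshold, and the cause of the sign changes was not tested. IL24 between SID and SCR ran from 2.32 to 5.28 without 1 array and stayed positive.

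The median over all probes of SID minus SCR shifted by 0.0060 under quantile normalization and by 0.025 under centring. No member was bright enough for the fit on brighter probes. Averaging the probes of a gene gave no other value, since each member has 1 probe.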
